A study of Mus musculus with 3 samples.

Results

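Cx3cr1-positive Lyve1-negative macrophages were chosen from the UMI counts themselves, as barcodes that carried Cx3cr1 and lacked the markers of the other common macrophages of the stomach muscle. A barcode qualified with at least 2000 UMIs (unique molecular identifiers, each marking 1 captured transcript), at most 15% mitochondrial UMIs, at least 10 UMIs summed over C1qa, C1qb and C1qc, at least 2 UMIs of Cx3cr1, none of Lyve1 or Timd4, and at most 1 of Ccr2. Of 5735 barcodes in all, 1504 passed the first 3 limits and are called macrophages here, and 137 of those were Cx3cr1-positive and Lyve1-negative. The cells came from 3 libraries of CD45+ cells, CD45 being the common surface protein of leukocytes, sorted after collagenase type II digestion of stomach muscle from female C57bl/6 mice. All 3 libraries belong to 1 group, NonDiabetic, so no treatment, genotype or disease is compared, and no age is given. The labels do not say whether the libraries came from separate or pooled animals, so a p-value below speaks only of how far these 3 libraries spread, and that spread may be technical.

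Macrophages of the gut muscle layer, the muscularis macrophages, lie among smooth muscle cells and enteric neurons, clear dying cells and debris, and release factors that act on the neurons. Cx3cr1 encodes the receptor for fractalkine (Cx3cl1), a chemokine that exists in a membrane-bound and a shed form, and is a common label of tissue macrophages, monocytes and microglia. Lyve1, a hyaluronan receptor, and Timd4, a phosphatidylserine receptor, mark macrophages that are often long-lived and sit near vessels, while Ccr2, the receptor for Ccl2, marks monocytes and cells recently derived from them. The C1q genes encode the subunits of the first complement component and are abundant in mature tissue macrophages.

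The 3 libraries held 881 to 2839 barcodes and 6777422 to 13336484 UMIs. Replicate 1 gave 16 of the 137 cells, replicate 2 gave 45 and replicate 3 gave 76. They made up 8.16% of the macrophages of replicate 1 (exact Clopper-Pearson 95% interval 4.74 to 12.9%), 7.08% of those of replicate 2 (5.21 to 9.35%) and 11.3% of those of replicate 3 (9.01 to 14.0%), a mean of 8.85 ± 2.20% (SD, n = 3). These intervals cover counting error only. The 3 intervals overlap, and replicate 3 had the highest share. The median depth of these cells was 10402, 9124 and 8230.5 UMIs in replicates 1, 2 and 3, and their summed UMIs came to 156672, 425942 and 667826. Sharing of barcodes between libraries touched 34 barcodes, none of them a macrophage in both libraries. Whether any was a macrophage in only 1 of them was not counted.

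The remaining macrophages fell into 3 classes by the same genes. Lyve1 or Timd4 macrophages (at least 1 UMI of either gene) numbered 840, Ccr2 macrophages (no Lyve1 or Timd4 UMI and at least 2 of Ccr2) numbered 395, and Cx3cr1-low macrophages (no Lyve1 or Timd4 UMI, at most 1 each of Ccr2 and Cx3cr1) numbered 132, of which only 12 were in replicate 1. Lymphoid barcodes, 454 under the same depth and mitochondrial limits, served as a background class. Their level shows what free RNA can give only for a transcript that lymphoid cells do not make. Which transcripts they make was not tested.

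**Figure D1:**
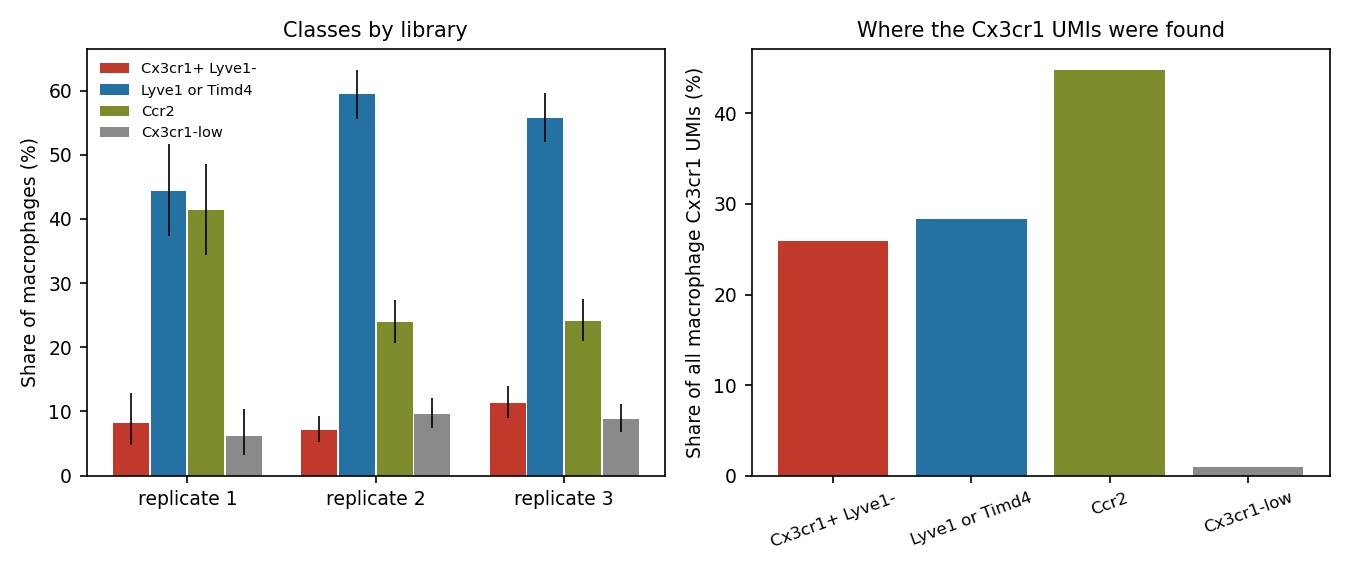
Left, share of macrophages in percent (bars, axis from 0) in each of the 4 classes for each library, with exact 95% intervals for counting error; right, share of all macrophage Cx3cr1 UMIs found in each class, pooled over libraries. Cx3cr1-positive Lyve1-negative cells make up 7.08% to 11.3% of the macrophages of a library, below the Lyve1 or Timd4 and the Ccr2 classes in every library, and hold 25.9% of the Cx3cr1 UMIs.

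Cx3cr1 was not limited to these cells. Of 3423 Cx3cr1 UMIs in all macrophages, 25.9% lay in the 137 cells, 28.3% in Lyve1 or Timd4 macrophages, 44.8% in Ccr2 macrophages and 0.906% in Cx3cr1-low macrophages. Among the 485 macrophages with at least 2 Cx3cr1 UMIs, 142 also carried Lyve1 or Timd4 and 206 carried Ccr2, so the 137 cells are those whose Cx3cr1 came without the other markers. Their Cx3cr1 level was 1008, 467 and 794 CPM (counts per 1000000 UMIs of the class) in replicates 1, 2 and 3, and these levels follow from the rule. A single cell held up to 33 Cx3cr1 UMIs in replicate 1, 16 in replicate 2 and 21 in replicate 3, 25 of the 137 cells had exactly 2, and 27 had a single Ccr2 UMI. Over the depth bands of 2000 to under 5000, 5000 to under 10000 and at least 10000 UMIs, the share of macrophages that qualified was 5.36, 6.45 and 11.5% in replicate 1, 5.32, 10.2 and 5.03% in replicate 2, and 13.8, 11.5 and 9.66% in replicate 3. Pooled over libraries it was 9.29, 10.5 and 7.65% (26 of 280, 64 of 610 and 47 of 614), and the libraries did not share an order. Cx3cr1 is annotated on chromosome 9 (GRCm38, 119901616 to 120069879, minus strand).

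Each comparison below sums raw counts per library and class, and tests the sums two-sided by the quasi-likelihood method of edgeR, with the library as a block, Benjamini-Hochberg adjusted over all genes tested, with a call at an adjusted p under 0.05. The 7 genes of the rule are not tested. Genes that travel with one of them differ partly because the cells were chosen on it, and that part cannot be separated. The 4 comparisons share the profiles of the 137 cells, so they are not independent. Against all other macrophages 189 of 8600 genes (2.2%) were higher and 163 (1.9%) lower. Against Lyve1 or Timd4 macrophages 389 of 7177 genes (5.42%) were higher and 329 (4.58%) lower, and against Ccr2 macrophages 272 of 7816 (3.48%) were higher and 203 (2.6%) lower. Against Cx3cr1-low macrophages 1 of 5743 genes (0.0174%) was higher and 5 (0.0871%) lower. Library values that do not overlap were common: all 3 values of the 137 cells lay above those of all others for 3.47% of genes and below for 11.4%. These shares were 4.49% and 15.3% against Lyve1 or Timd4 macrophages, 6.1% and 8.83% against Ccr2 macrophages, and 3.94% and 3.66% against Cx3cr1-low macrophages, so a lack of overlap below is a description and not a result by itself.

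**Figure D2:**
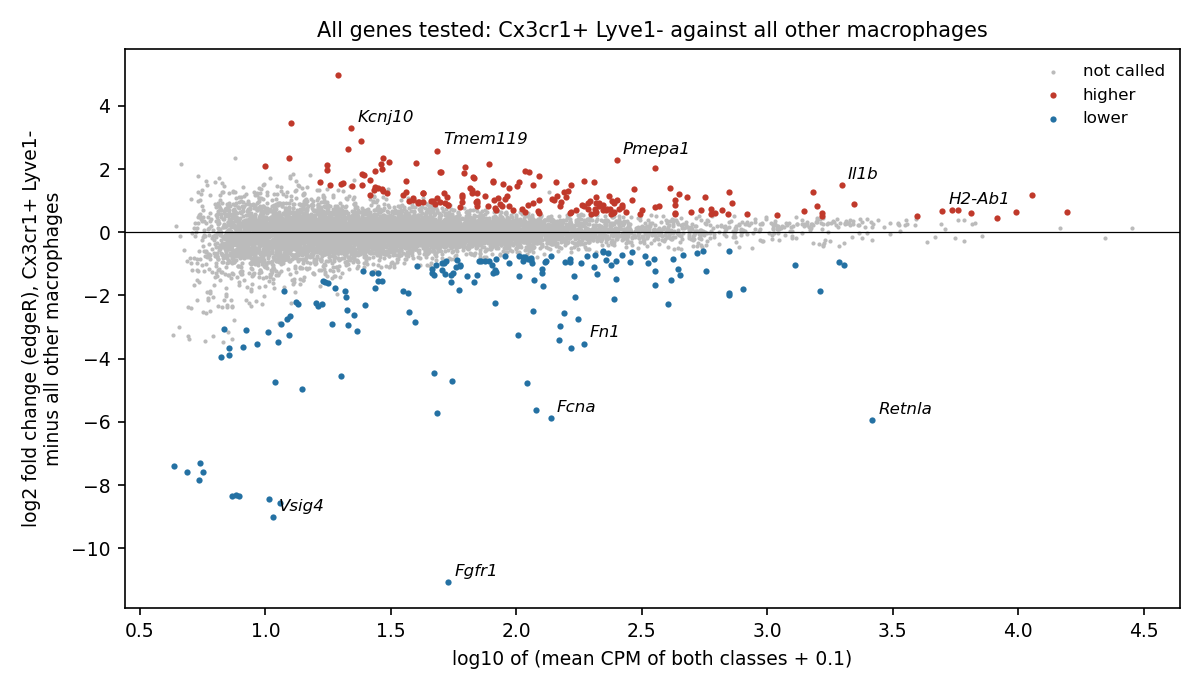
Log2 fold change of every gene tested (137 cells minus all other macrophages, y axis) over its mean level in both classes (x axis, log10 of CPM), 1 point per gene, with the 189 genes called higher in red, the 163 called lower in blue and several genes named. Retnla, at -5.95, lies far below the other abundant genes, while Tmem119 (2.58) and Pmepa1 (2.29) lie above most genes of their level.

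Of the other marker genes given for the population, Itgb5 was higher than in both large classes, and Trem2 and Hpgd were each higher than in 1 of them. Itgb5, an integrin subunit that pairs with the alpha v chain, stood at 338, 131 and 190 CPM in replicates 1, 2 and 3, against 74.7, 68.2 and 90.8 in Lyve1 or Timd4 macrophages and 121, 63.8 and 113 in Ccr2 macrophages. The levels did not overlap, and Itgb5 was higher than in all other macrophages by 1.28 on the log2 scale (SE 0.18, adjusted p = 3.98e-05). Trem2, a receptor for lipids and cell debris, stood at 236, 336 and 268 CPM, above the Lyve1 or Timd4 macrophages (79.2, 142 and 185; log2 fold change 1.20, SE 0.20, adjusted p = 0.000871). Its values overlapped those of the Ccr2 macrophages (157, 260 and 279; log2 fold change 0.26, SE 0.17, adjusted p = 0.45). Hpgd, the enzyme that inactivates prostaglandins, stood at 243, 214 and 374 CPM and overlapped the Lyve1 or Timd4 macrophages (160, 271 and 347; log2 fold change 0.23, SE 0.18, adjusted p = 0.529). It was higher than in Ccr2 macrophages, where it stood at 79.2, 152 and 215 CPM (log2 fold change 0.87, SE 0.18, adjusted p = 0.00845). Against Cx3cr1-low macrophages none of these 3 genes passed the test. Against all others, Trem2 was called (log2 fold change 0.75, SE 0.17, adjusted p = 0.00847) but not without replicate 2 (0.60, adjusted p = 0.235), and Hpgd was not (0.49, SE 0.18, adjusted p = 0.162). Of these 3 genes, Itgb5 alone was called against both the Lyve1 or Timd4 and the Ccr2 class. The markers were picked with earlier results of these cells known, so their direction is no independent evidence. The genes lie on chromosome 16 (Itgb5, 33829665 to 33949338, plus strand), 17 (Trem2, 48346401 to 48354147, plus strand) and 8 (Hpgd, 56294585 to 56321043, plus strand) of GRCm38.

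Cells were also compared at equal depth, after each was thinned to 2000 UMIs at random. A UMI of Itgb5 was then found in 37.3 ± 16.5% of the 137 cells (SD over 3 libraries), of Hpgd in 39.8 ± 13.9% and of Trem2 in 28.5 ± 14.3%. In all other macrophages the mean shares were 13.7%, 29.4% and 21.6%. The share of Itgb5 was higher in the 137 cells in all 3 libraries, those of Hpgd and Trem2 in 2 and lower in 1. In lymphoid barcodes (median depth 6609 to 8955 UMIs) the shares were 0%, 0.238% and 0%. A count of 0 in the 139 lymphoid barcodes of replicate 3 allows a share of up to 2.16%. Without thinning, Itgb5 was found in 67.4%, Hpgd in 69.8% and Trem2 in 66.0% of the cells. At equal depth 5 of the 137 cells carried all 3 of Hpgd, Trem2 and Itgb5, 33 carried 2 of them, 64 carried 1 and 35 carried none. With 3 libraries the exact two-sided sign-flip test of a share cannot go below p = 0.25, and no share of the 28 genes compared passed.

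Genes known from microglia, the macrophages of the brain, were among those that set the cells apart. Tmem119, a membrane protein used as a microglial marker, stood at 128, 77.5 and 44.9 CPM in replicates 1, 2 and 3. It stood at 10.7, 3.73 and 8.47 in Lyve1 or Timd4 macrophages, 15.1, 18.6 and 34.1 in Ccr2 macrophages, and 0, 7.53 and 10.1 in Cx3cr1-low macrophages, so every library of the 137 cells was above every library of the other classes. The log2 fold change was 2.58 against all others (SE 0.33, adjusted p = 1.32e-05), 3.51 against Lyve1 or Timd4 macrophages (SE 0.38, adjusted p = 1.1e-05) and 1.62 against Ccr2 macrophages (SE 0.38, adjusted p = 0.0186). Without replicate 2 the last of these was 1.36 and no longer called. A Tmem119 UMI was seen in 33 of the 137 cells, 1 of which held 20.5% of them. In lymphoid barcodes Tmem119 stood at 0.664, 0.777 and 1.00 CPM. Tmem119 lies on chromosome 5 of GRCm38 (113793729 to 113800516, minus strand).

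Olfml3, a secreted protein of the extracellular matrix, followed the same order, at 153, 68.1 and 80.9 CPM against 19.8, 13.5 and 23.0 in Lyve1 or Timd4 macrophages and 29.2, 20.02 and 40.8 in Ccr2 macrophages (log2 fold change 2.06 against all others, SE 0.25, adjusted p = 6e-06). Of the 22 genes of a list of microglia-type genes 17 were tested against all others. There edgeR called 6 higher, among them Tmem119, Olfml3 and Itgb5, and none lower, with a median log2 fold change of 0.51, beside a median of -0.00 over all genes tested. DESeq2 called 4 higher and 0 lower. Itgb5 and Trem2, both among the 6, are also markers given for the population, so their calls are no independent evidence. Itgb5 counts in the TGF-beta and integrin lists below too, and Trem2 in the lipid-associated list. Against Ccr2 macrophages 11 of 17 were higher and none lower, the list then including Siglech (12.8, 58.7 and 22.5 CPM against 4.72, 3.72 and 3.35; log2 fold change 3.12, SE 0.50, adjusted p = 0.00147), P2ry13 and Bhlhe41. Against Lyve1 or Timd4 macrophages 6 of 18 were higher and Adgrg1 was lower. Siglech, a sialic acid-binding lectin, was at 86.8, 69.1 and 71.7 CPM in that class, and the difference there did not pass (log2 fold change -0.95, SE 0.33, adjusted p = 0.0862). Against Cx3cr1-low macrophages edgeR called 1 of 14 tested genes of the list higher (Tmem119) and 0 lower, and DESeq2 0 and 0.

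**Figure D3:**
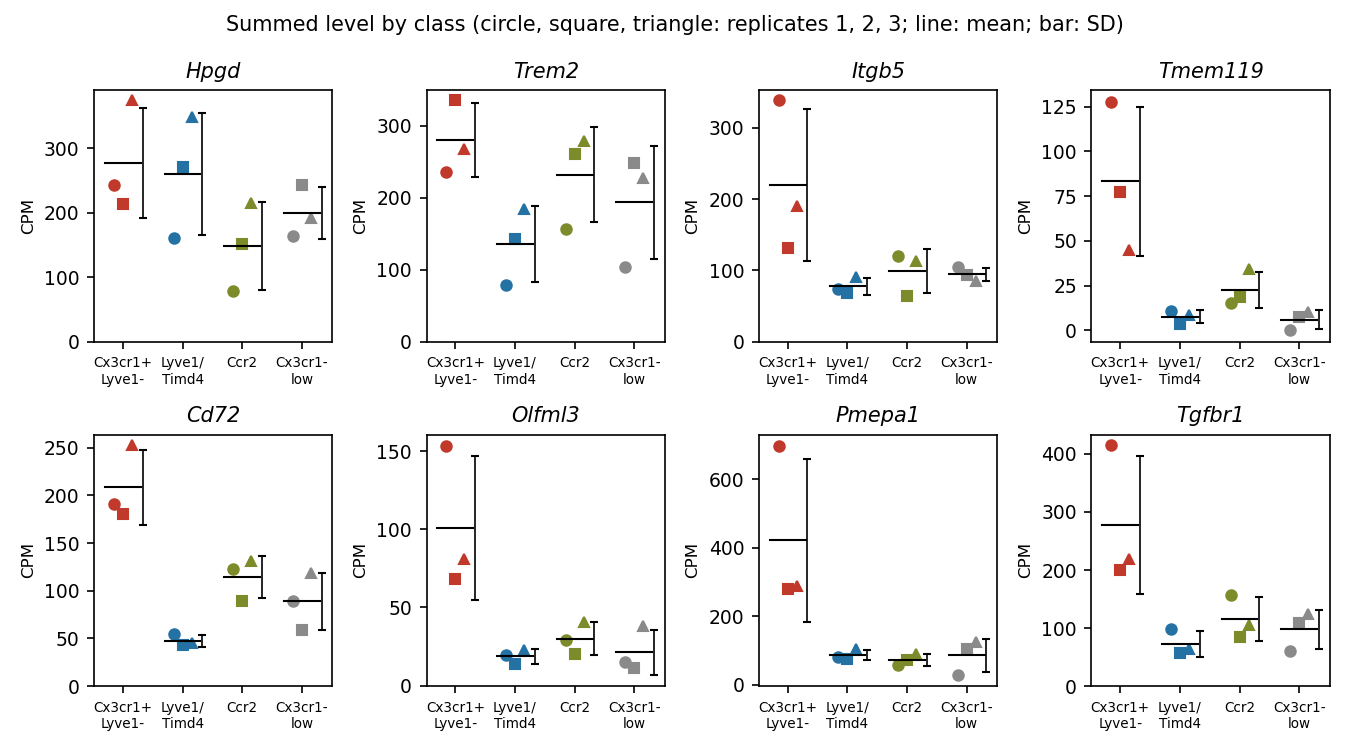
Level in CPM (y axis, 0 included, each panel on its own scale) of Hpgd, Trem2, Itgb5, Tmem119, Cd72, Olfml3, Pmepa1 and Tgfbr1 in the 4 macrophage classes, with 1 point per library (circle, square and triangle for replicates 1, 2 and 3), a line at the mean and a bar of 1 SD. For all but Hpgd and Trem2 every library of the 137 cells lies above every library of the Lyve1 or Timd4 and the Ccr2 classes.

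TGF-beta is a cytokine that is stored in the matrix in a latent form, released by alpha v integrins and bound by a pair of receptor chains. It is known to maintain the identity of microglia and of several tissue macrophages. Tgfbr1, the signalling receptor chain, stood at 415, 200 and 219 CPM in replicates 1, 2 and 3. In Lyve1 or Timd4 macrophages it stood at 97.5, 56.5 and 63.3, in Ccr2 macrophages at 158, 84.3 and 105, and in Cx3cr1-low macrophages at 59.6, 109 and 124. No library of the 3 other classes reached the lowest value of the 137 cells, and the log2 fold change against all others was 1.63 (SE 0.16, adjusted p = 1.96e-07). The second receptor chain, Tgfbr2, stood at 223, 174 and 193 CPM and was higher than in Ccr2 macrophages only among the 3 class comparisons (112, 78.7 and 92.2; log2 fold change 1.08, SE 0.16, adjusted p = 0.000846); against Lyve1 or Timd4 macrophages, with 151, 218 and 276 CPM, the log2 fold change was -0.03 (SE 0.20, adjusted p = 0.965).

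On the side of release, Itgav, the alpha v chain, stood at 262, 129 and 105 CPM against 67.0, 64.8 and 50.2 in Lyve1 or Timd4 macrophages (log2 fold change 1.43, SE 0.21, adjusted p = 0.000257). Against Ccr2 macrophages (118, 110 and 75.5 CPM) it was not called (log2 fold change 0.58, SE 0.18, adjusted p = 0.0845). Skil, a repressor of the Smad proteins that carry the signal, was higher than in all others by 0.87 (SE 0.15, adjusted p = 0.000569). Of 14 tested genes of the TGF-beta list 4 were higher and none lower against all others, 5 and none against Lyve1 or Timd4 macrophages, 4 and none against Ccr2 macrophages, and none of 13 against Cx3cr1-low macrophages. The list's median log2 fold change against all others was 0.12, near that of all genes tested. Pmepa1, a membrane adaptor known to be induced by TGF-beta and to restrain its signal, is not on that list but was among the 12 genes of largest fold change. It stood at 696, 279 and 288 CPM, against 82.3, 74.8 and 104 in Lyve1 or Timd4 macrophages, 56.6, 72.2 and 90.0 in Ccr2 macrophages and 29.8, 104 and 124 in Cx3cr1-low macrophages, again with no overlap (log2 fold change 2.29 against all others, SE 0.23, adjusted p = 2.37e-07). Pmepa1 UMIs were found in 89 of the 137 cells. Tgfbr1 lies on chromosome 4 (47353222 to 47414931, plus strand) and Pmepa1 on chromosome 2 (173224458 to 173276533, minus strand) of GRCm38.

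The other genes of largest positive fold change against all other macrophages, among those higher in all 3 libraries and above the level required for naming, were mostly rarer transcripts. Kcnj10, an inwardly rectifying potassium channel best known from glial cells, stood at 83.0, 9.39 and 28.5 CPM against 5.05, 1.78 and 3.46 in all others (log2 fold change 3.30, SE 0.49, adjusted p = 8.97e-05). It was seen in 24 of the 137 cells, and the glial and neuronal marker list summed to at most 6.38 CPM in these cells, with Sox10 and Elavl4 among those at 0. Mmp14, a membrane-anchored matrix protease, stood at 76.6, 47.0 and 70.4 CPM against 15.1, 17.2 and 12.6 (log2 fold change 2.20, SE 0.29, adjusted p = 1.77e-05). Acp5, the tartrate-resistant acid phosphatase, was called (log2 fold change 2.17, SE 0.29, adjusted p = 2.1e-05), but 45.4% of its UMIs came from 1 cell, and it was not called without replicate 3 (1.31). Tlr12, Lag3, Galnt3, Lhfpl2 and Zfp691 completed the 12 with Tmem119, Pmepa1, Olfml3 and Ptgs2. The library values overlapped for Tlr12, Lag3, Galnt3 and Lhfpl2. Galnt3 (1.95) and Lhfpl2 (1.65) were not called without replicate 1, nor were Lhfpl2 (2.02) and Zfp691 (1.87) without replicate 2.

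Retnla, which encodes a small secreted protein typical of macrophages under type 2 cytokines, was the abundant transcript that these cells most clearly lacked. It stood at 287, 44.6 and 25.5 CPM in replicates 1, 2 and 3. In Lyve1 or Timd4 macrophages it stood at 6966, 4727 and 4387 CPM, in Ccr2 macrophages at 6262, 6071 and 4263, and in Cx3cr1-low macrophages at 3101, 518 and 1047. Every library of the 137 cells was below every library of the others, and the log2 fold change was -5.95 against all others (SE 0.31, adjusted p = 9.6e-12), -5.96 against Lyve1 or Timd4 macrophages (SE 0.37, adjusted p = 8.03e-08) and -6.17 against Ccr2 macrophages (SE 0.39, adjusted p = 4.46e-07). Against Cx3cr1-low macrophages it was -4.02 (SE 0.35, adjusted p = 1.18e-05). Of the 137 cells 34 held a Retnla UMI, and 1 cell held 44.4% of all 81. In lymphoid barcodes Retnla stood at 152, 249 and 28.1 CPM, a range that overlaps that of the 137 cells. Retnla is not a gene of the rule. Retnla lies on chromosome 16 of GRCm38 (48842551 to 48844461, plus strand).

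Fgfr1, a receptor for fibroblast growth factors, had no UMI among the 1250440 of these cells, against 89.7, 116 and 115 CPM in all other macrophages, a level at least 46.8-fold lower when 3 counts over the class are taken as the floor. It stood at 111, 167 and 167 CPM in Lyve1 or Timd4 macrophages and at 78.3, 59.6 and 42.5 in Ccr2 macrophages. The lack held against both of these classes (at least 67.4-fold and 23.9-fold lower). Pooled over libraries, Cx3cr1-low macrophages held 14.6 CPM in the 101 cells without a Cx3cr1 UMI and 20.7 in the 31 with exactly 1. Fgfr1 was not among the genes called against that class. Cd209a, a C-type lectin of dendritic cells and some macrophages, stood at 0, 9.39 and 0 CPM against 178, 83.4 and 74.2 in Lyve1 or Timd4 and 91.5, 103 and 38.6 in Ccr2 macrophages (log2 fold changes -4.61, SE 0.52, adjusted p = 1.86e-05 and -4.34, SE 0.49, adjusted p = 0.000103). Ccl6, a chemokine of myeloid cells, was lower against both as well, at 332, 211 and 302 CPM against 1106, 1445 and 1493 and against 785, 1128 and 868 (log2 fold change -1.92 against all others, SE 0.18, adjusted p = 7.31e-08).

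**Figure D4:**
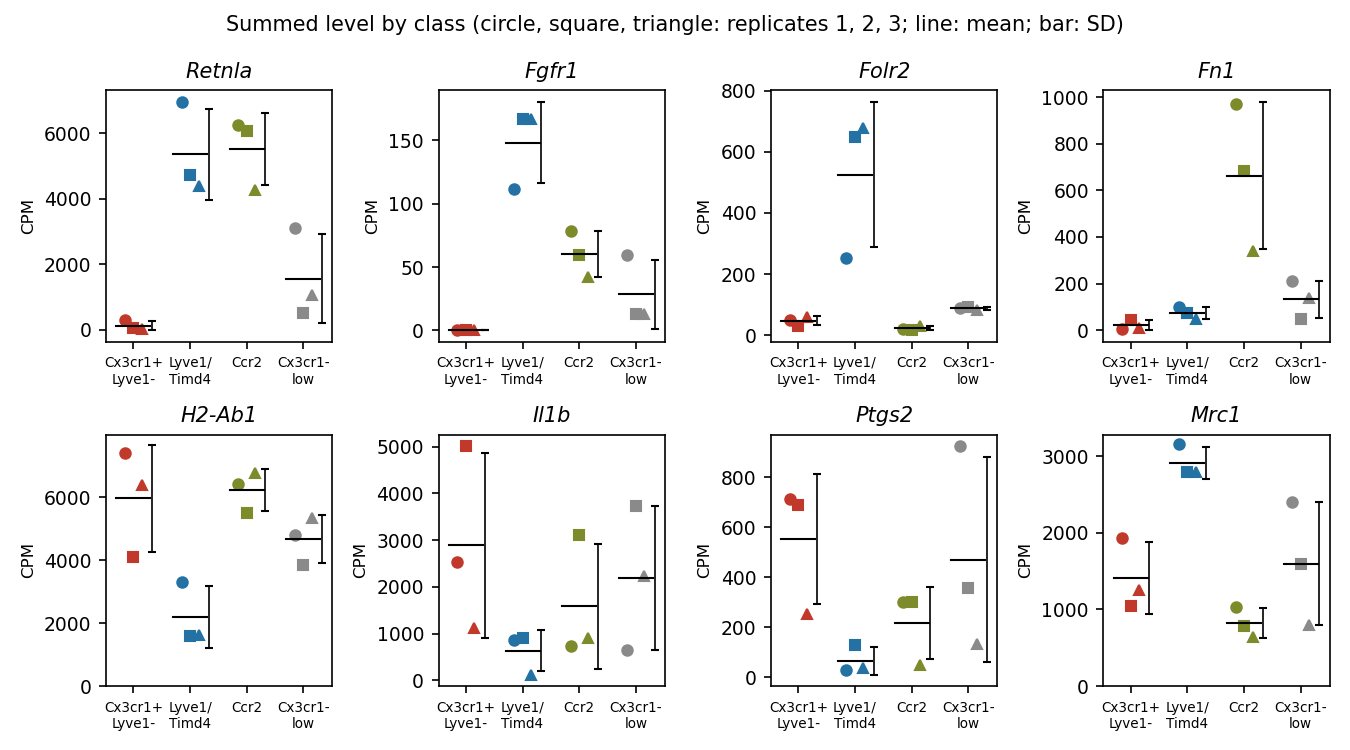
Level in CPM (y axis, 0 included, each panel on its own scale) of Retnla, Fgfr1, Folr2, Fn1, H2-Ab1, Il1b, Ptgs2 and Mrc1 in the 4 macrophage classes, with 1 point per library (circle, square and triangle for replicates 1, 2 and 3), a line at the mean and a bar of 1 SD. Fgfr1 is at 0 and Retnla at most 287 CPM in the 137 cells, while their H2-Ab1 values overlap those of the Ccr2 class.

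The list of genes of the Lyve1 programme showed where these cells stand between the 2 large classes. Against Lyve1 or Timd4 macrophages 22 of its 23 tested genes were lower and none higher, and against Ccr2 macrophages 11 of 17 were higher and none lower. Cbr2, a carbonyl reductase, stood at 115, 286 and 208 CPM, between the Lyve1 or Timd4 class (783, 1156 and 1295; log2 fold change -2.25, SE 0.20, adjusted p = 1.23e-06) and the Ccr2 class (58.5, 66.1 and 66.0; log2 fold change 1.72, SE 0.20, adjusted p = 0.000126). Gas6, the ligand that bridges dying cells to the Axl and Mertk receptors, lay between them too, at 236, 183 and 231 CPM against 774, 700 and 881 (log2 fold change -1.71, SE 0.17, adjusted p = 4.73e-06) and 81.1, 49.3 and 84.4 (log2 fold change 1.62, SE 0.17, adjusted p = 6.03e-05). Cd163, the haemoglobin scavenger receptor, lay between them at 76.6, 223 and 307 CPM against 512, 1101 and 910 and against 73.6, 75.4 and 111, with replicate 1 at the level of the Ccr2 class. Folr2, a folate receptor of resident macrophages, stood at 51.1, 30.5 and 58.4 CPM, against 251, 648 and 677 in Lyve1 or Timd4 macrophages (log2 fold change -3.46, SE 0.26, adjusted p = 4.25e-07) and 21.7, 15.8 and 29.1 in Ccr2 macrophages (log2 fold change 1.03, SE 0.28, adjusted p = 0.0423). The latter was not called without replicate 2 (1.03, adjusted p = 0.163) or 3 (1.09, adjusted p = 0.236), nor by DESeq2 (adjusted p = 0.415). Mrc1, the mannose receptor, took the same place at 1934, 1040 and 1250 CPM, below 3152, 2793 and 2797 (log2 fold change -0.94, SE 0.16, adjusted p = 0.000933, and not called without replicate 3) and above 1030, 782 and 642 (log2 fold change 0.76, SE 0.14, adjusted p = 0.00357). Other genes of the list were near 0. Fcna, a ficolin of the lectin complement pathway, stood at 12.8, 2.35 and 4.49 CPM against 393, 463 and 636 in Lyve1 or Timd4 macrophages (log2 fold change -6.62, SE 0.34, adjusted p = 1.31e-08). Vsig4, a complement receptor, had no UMI (at least 18.5-fold lower than in that class), and Cd209d and Cd209f were lower as well. Ednrb, the endothelin receptor B, is not on that list but was among the 12 genes of largest negative fold change, at 0, 14.1 and 0 CPM against 379, 467 and 471 in Lyve1 or Timd4 macrophages (log2 fold change -6.37, SE 0.44, adjusted p = 1.72e-07). Of the list, edgeR called 16 of 23 lower than in all others and 0 higher, and DESeq2 14 and 0. With an unadjusted p under 0.05 the counts were 21 and 0, beside 1110 of all 8600 genes tested, in either direction. Since the rule excludes cells with a Lyve1 UMI, part of the difference from Lyve1 or Timd4 macrophages is fixed by it.

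C4b, a complement component, stood at 44.7, 21.1 and 22.5 CPM against 422, 400 and 643 in Lyve1 or Timd4 macrophages (log2 fold change -4.16, SE 0.27, adjusted p = 8.03e-08) and 17.0, 6.05 and 14.5 in Ccr2 macrophages, where it was not called (1.15, SE 0.40, adjusted p = 0.119). Cfp, properdin, a positive regulator of the alternative pathway, was lower against both, at 70.2, 79.8 and 100 CPM against 483, 491 and 496 and against 358, 346 and 285 (log2 fold change -2.12 against all others, SE 0.19, adjusted p = 4.11e-08). Of 12 tested complement genes 5 were lower than in all others and none higher. Against Ccr2 macrophages 1 of 10 was lower (Cfp) and 2 were higher, among them C3ar1, the receptor for C3a. C3ar1 was not called without replicate 2 (0.56, adjusted p = 0.0907) or 3 (0.63, adjusted p = 0.0518), nor by DESeq2 (adjusted p = 0.171).

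Monocyte genes were mostly lower than in Ccr2 macrophages. Fn1, fibronectin, stood at 6.38, 44.6 and 8.98 CPM against 971, 681 and 338 in Ccr2 macrophages (log2 fold change -4.73, SE 0.30, adjusted p = 4.46e-07), with UMIs in 11 of the 137 cells. S100a4, a calcium-binding protein of motile cells, stood at 70.2, 322 and 41.9 CPM against 1005, 1238 and 1010 (log2 fold change -3.17, SE 0.36, adjusted p = 0.000103). Of 22 monocyte genes 17 were tested there, and 13 were lower and none higher, with a median log2 fold change of -2.84. Ly6c2, Plac8, Chil3 and Vcan were among those with no UMI in the 137 cells. The whole list summed to 6983 to 12020 CPM in the 137 cells, 12385 to 17339 in Ccr2 macrophages and 7288 to 9660 in Lyve1 or Timd4 macrophages. Against Lyve1 or Timd4 macrophages 4 of 14 were lower (Fn1, Ifitm6, S100a4 and S100a6) and Lyz2, lysozyme, was higher. Without replicate 3 none of those 4 was called, with log2 fold changes of -1.19, -2.32, -0.97 and -1.05. The limit of 1 Ccr2 UMI in the rule bears on the first of these comparisons.

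MHC class II genes, which present peptides to CD4 T cells, were higher in the 137 cells than in Lyve1 or Timd4 macrophages. H2-Ab1 stood at 7404, 4087 and 6380 CPM in replicates 1, 2 and 3, against 3316, 1587 and 1635 in Lyve1 or Timd4 macrophages (log2 fold change 1.66, SE 0.16, adjusted p = 4.78e-06) and 6423, 5491 and 6779 in Ccr2 macrophages (log2 fold change -0.10, SE 0.13, adjusted p = 0.775). The values overlapped those of the Ccr2 class and lay above those of the Lyve1 or Timd4 class. Lymphoid barcodes held 1663, 1232 and 905 CPM of H2-Ab1. Ciita, the transcription factor that switches these genes on, stood at 172, 101 and 162 CPM against 65.5, 26.7 and 35.4 in Lyve1 or Timd4 macrophages (log2 fold change 2.07, SE 0.21, adjusted p = 7.62e-06), and 9 of 11 tested genes of the list were higher there and none lower. Against Ccr2 macrophages Cd86, a co-stimulatory ligand, was higher (236, 322 and 156 CPM against 124, 173 and 103; log2 fold change 0.81, SE 0.16, adjusted p = 0.00653) and H2-DMb1, which loads peptides, was lower, among 13. Neither was called without replicate 2. Against all others 7 of 13 were higher and none lower, and without replicate 3 H2-Ab1 (0.56, adjusted p = 0.267), H2-Aa (0.61, adjusted p = 0.172) and Ciita (0.80, adjusted p = 0.173) were not called. Ciita (0.86) and Cd86 (0.62) were not called without replicate 2 either. Nor were, against Ccr2 macrophages, Cd86 (0.69, adjusted p = 0.0839) and H2-DMb1 (-0.48, adjusted p = 0.155), which DESeq2 did not call there either (adjusted p = 0.0669 and 0.0972). Summed over the list, the 137 cells held 33772 to 45429 CPM, and the Lyve1 or Timd4 class 12834 to 20332. Cx3cr1-low macrophages held 28628 to 43857 CPM, and none of 11 tested genes of the list was called against them. Dendritic cell markers, beside this, summed to 103 to 121 CPM in the 137 cells and 187 to 328 in the Lyve1 or Timd4 class, with Itgae, Ccl17, Dpp4 and Sept3 at 0.

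Several inflammatory genes were higher. Il1b, the cytokine interleukin 1 beta, stood at 2528, 5012 and 1119 CPM against 872, 896 and 120 in Lyve1 or Timd4 macrophages (log2 fold change 2.59, SE 0.24, adjusted p = 2.59e-06) and 724, 3111 and 904 in Ccr2 macrophages (log2 fold change 0.92, SE 0.21, adjusted p = 0.0147). Within each library the 137 cells held more than either class, but the values of the Ccr2 class overlapped theirs, and replicate 2 was highest in every class. Ptgs2, the inducible cyclooxygenase that begins prostaglandin synthesis, stood at 715, 688 and 253 CPM against 30.5, 129 and 36.3 in Lyve1 or Timd4 macrophages (log2 fold change 3.19, SE 0.26, adjusted p = 7.88e-07) and 301, 299 and 48.6 in Ccr2 macrophages (log2 fold change 1.57, SE 0.19, adjusted p = 0.000198). It was found in 33 of the 137 cells, and Cx3cr1-low macrophages held 924, 356 and 131 CPM, so this gene did not mark the 137 cells alone. Il6 went the other way, at 12.8, 21.1 and 2.99 CPM against 213, 59.6 and 8.78 and against 50.9, 64.7 and 30.7 (log2 fold change -1.92 against all others, SE 0.37, adjusted p = 0.00186). Of 14 tested inflammatory cytokine genes 5 were higher and 1 lower than in all others. Against Cx3cr1-low macrophages none of 13 was called. Of 22 genes known to respond to tissue digestion, 1 (Fos) was higher and none lower than in all others, and Fos was not called without replicate 2 (0.35) or 3 (0.67), nor by DESeq2 (adjusted p = 0.176). The list had a summed level of 33789 to 42117 CPM in the 137 cells and 35348 to 44560 in the Lyve1 or Timd4 class. From that class Hspa1a differed as higher and Egr1 as lower. In Ccr2 macrophages the sum was lower in every library, at 32224, 26110 and 34349 CPM against 35239, 33789 and 42117. There edgeR called 2 of the 22 higher (Ier3 and Hsp90aa1) and 0 lower, and DESeq2 1 and 0. At an unadjusted p under 0.05 the counts were 7 and 0, beside 1475 of all 7816 genes tested there, in either direction. The part of digestion in these levels was not tested.

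At 2000 UMIs per cell, the median cell of replicates 1, 2 and 3 had 14, 7 and 11.5 UMIs of H2-Ab1, and the highest had 26, 28 and 36. Of Il1b the median was 0, 2 and 0, the upper quartile 4.25, 14 and 1, and the highest 43, 37 and 20. Both genes were found in 55 cells, H2-Ab1 without Il1b in 68, Il1b without H2-Ab1 in 2, and neither in 12. Il1b was found in 37.5%, 62.2% and 30.3% of the cells of replicates 1, 2 and 3, against 6.67 ± 4.36% of lymphoid barcodes. Mrc1 was found with Il1b in 38 cells and without it in 61.

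Genes of lipid handling gave a mixed picture. Apoe, the main lipoprotein of macrophages, stood at 17750, 9335 and 18845 CPM against 3544, 3478 and 5477 in Ccr2 macrophages (log2 fold change 1.84, SE 0.15, adjusted p = 5.55e-06), and lymphoid barcodes held 75.1 to 83.1 CPM. Against Lyve1 or Timd4 macrophages (5538, 9170 and 13444 CPM) it was called (log2 fold change 0.89, SE 0.21, adjusted p = 0.0125), but without replicate 1 it was 0.43 and not called, and without replicate 3 it was 1.04 and not called. Cd9, a tetraspanin, stood at 306, 261 and 247 CPM against 111, 53.6 and 48.1 in Lyve1 or Timd4 macrophages (log2 fold change 2.26, SE 0.20, adjusted p = 1.38e-06) and 270, 212 and 193 in Ccr2 macrophages (0.29, SE 0.15, adjusted p = 0.311). Axl, a receptor for Gas6-coated dying cells, stood at 491, 247 and 252 CPM against 128, 93.8 and 90.5 in the Lyve1 or Timd4 class (log2 fold change 1.74, SE 0.17, adjusted p = 4.73e-06). Spp1, osteopontin, was called against all others (log2 fold change 1.92, SE 0.24, adjusted p = 1.01e-05), with UMIs in 15 cells and 36.0% of them in 1 cell. Fabp4, a fatty acid-binding protein, was lower than in Cx3cr1-low macrophages, at 6.38, 9.39 and 0 CPM against 14.9, 128 and 65.6 (log2 fold change -4.18, SE 0.61, adjusted p = 0.00523). Of 24 tested lipid-associated genes 6 were higher and 2 lower than in all others, 10 of 22 higher and 3 lower than in Lyve1 or Timd4 macrophages, and 7 of 24 higher and 2 lower than in Ccr2 macrophages. Against Cx3cr1-low macrophages none of 24 was higher and 1 was lower (Fabp4).

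Enzymes of prostaglandin and leukotriene metabolism differed class by class. Hpgds, which makes prostaglandin D2, stood at 326, 216 and 175 CPM against 101, 56.3 and 52.5 in Ccr2 macrophages (log2 fold change 1.80, SE 0.16, adjusted p = 1.26e-05) and 122, 195 and 209 in Lyve1 or Timd4 macrophages (0.48, SE 0.24, adjusted p = 0.252). Ltc4s, which makes leukotriene C4, stood between them, at 109, 115 and 95.8 CPM against 22.6, 32.6 and 40.2 in Ccr2 macrophages (log2 fold change 1.67, SE 0.24, adjusted p = 0.00052) and 155, 416 and 445 in Lyve1 or Timd4 macrophages (log2 fold change -1.59, SE 0.24, adjusted p = 0.000413); without replicate 3 the latter was -1.15 and not called. Ptgir, the prostacyclin receptor, was nearly absent, at 0, 2.35 and 2.99 CPM against 29.2, 41.0 and 35.2 in Ccr2 macrophages (log2 fold change -3.87, SE 0.54, adjusted p = 0.000456). Of 15 tested genes of this list 3 were higher and 3 lower than in all others, while DESeq2 called 1 higher and 0 lower. The 3 lower genes were Ptgir, Alox5 and Ltc4s (adjusted p = 0.141, 0.126 and 0.679 by DESeq2). None of them was called by edgeR without replicate 2.

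Chemokine genes split by family member. Ccl3 and Cxcl16 were among 7 of 18 that were higher than in all others, and Ccl8, Ccl24, Ccl6 and Ccl2 among 6 that were lower. DESeq2 called only 2 of the 18 higher and 5 lower, and Ccl2 was not called by it (adjusted p = 0.271). Ccl8, a ligand of several chemokine receptors, stood at 19.1, 7.04 and 46.4 CPM against 244, 473 and 871 in Lyve1 or Timd4 macrophages (log2 fold change -4.39, SE 0.28, adjusted p = 8.03e-08), with 59.5% of its UMIs in 1 cell. Against Ccr2 macrophages, at 2.83, 2.33 and 13.4 CPM, Ccl8 was higher (log2 fold change 1.85, SE 0.45, adjusted p = 0.0236), but not by DESeq2 (adjusted p = 0.209). There 6 of 18 chemokine genes were higher (Ccl3, Ccl7, Ccl8, Ccl12, Cxcl16 and Pf4) and 3 lower (Ccl6, Ccl9 and Ccl24). Of these, Ccl24 (-0.97, adjusted p = 0.379) was not called without replicate 2, nor Ccl12 (0.61, adjusted p = 0.153) without replicate 3, and DESeq2 called neither (adjusted p = 0.213 and 0.968). Ccl24, an eosinophil attractant, stood at 19.1, 18.8 and 16.5 CPM against 355, 269 and 282 (log2 fold change -3.85, SE 0.25, adjusted p = 8.03e-08). Ccl5, a T cell attractant, was higher than in the same class, at 160, 484 and 121 CPM against 47.2, 109 and 8.17 (log2 fold change 2.72, SE 0.28, adjusted p = 6.47e-06), with UMIs in 26 cells.

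Among surface genes Cd72, an inhibitory receptor of B cells and macrophages, stood at 191, 181 and 253 CPM against 54.9, 42.7 and 45.1 in Lyve1 or Timd4 macrophages, 123, 89.4 and 131 in Ccr2 macrophages and 89.5, 58.4 and 119 in Cx3cr1-low macrophages, with no overlap (log2 fold change 1.60 against all others, SE 0.18, adjusted p = 2.05e-06). The B cell marker Cd79a had no UMI in the 137 cells. Mpeg1, a pore-forming protein of phagocytes, stood at 1417, 589 and 925 CPM and was higher than in all others by 1.28 (SE 0.15, adjusted p = 4.26e-06). Itga6, the laminin-binding alpha 6 integrin chain, stood at 166, 106 and 111 CPM against 32.0, 31.8 and 37.8 in Lyve1 or Timd4 and 90.5, 39.6 and 47.5 in Ccr2 macrophages (log2 fold change 1.53 against all others, SE 0.20, adjusted p = 1.35e-05). Of 22 surface genes 6 were higher and none lower than in all others, and of 12 tested integrins 4 were higher and 1 lower.

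Of 24 tested transcription factors 2 were higher (Irf8 and Runx3) and 4 lower (Irf4, Bhlhe40, Klf2 and Klf4) than in all others. Irf8, needed for microglia and several mononuclear phagocytes, stood at 274, 254 and 261 CPM against 171, 159 and 150 in Lyve1 or Timd4 macrophages (log2 fold change 0.89, SE 0.16, adjusted p = 0.00178) and 152, 105 and 140 in Ccr2 macrophages (log2 fold change 1.02, SE 0.16, adjusted p = 0.00142), with little spread between the libraries. Runx3 was not called without replicate 2 (0.89), and Klf2 not without replicate 3 (-0.81). Irf4 stood at 25.5, 30.5 and 18.0 CPM against 162, 96.9 and 68.7 and against 76.4, 107 and 33.0 (log2 fold change -1.57 against all others, SE 0.27, adjusted p = 0.000463). Maf lay between the classes, at 1.04 above the Ccr2 class (SE 0.14, adjusted p = 0.000377) and -0.79 against the Lyve1 or Timd4 class (SE 0.20, adjusted p = 0.0158).

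Against each large class the genes of largest fold change included adhesion and surface genes. Vcam1, an adhesion molecule that binds leukocyte integrins, stood at 204, 183 and 121 CPM against 17.0, 23.7 and 14.0 in Ccr2 macrophages (log2 fold change 3.16, SE 0.21, adjusted p = 5.64e-07), with values that overlapped those of Lyve1 or Timd4 macrophages (190, 260 and 228). Cd38, an ectoenzyme that consumes NAD, lay between the classes at 38.3, 28.2 and 28.5 CPM, above 2.83, 3.72 and 3.91 in Ccr2 macrophages (log2 fold change 3.03, SE 0.46, adjusted p = 0.000954) and below 152, 119 and 155 in Lyve1 or Timd4 macrophages (-2.07, SE 0.24, adjusted p = 2.14e-05). Gngt2, a G protein gamma subunit, stood at 140, 84.5 and 133 CPM against 28.9, 8.60 and 18.2 in Lyve1 or Timd4 macrophages (log2 fold change 3.03, SE 0.25, adjusted p = 7.26e-07). F11r, a junctional adhesion molecule, followed at 191, 65.7 and 58.4 CPM against 24.4, 9.75 and 11.2 (log2 fold change 2.83, SE 0.26, adjusted p = 2.37e-06). Vcam1 and Cd38 thus set the 137 cells apart from the Ccr2 class, and Gngt2 and F11r from the Lyve1 or Timd4 class.

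Of growth factor genes 12 were tested against all others, with 1 higher and 5 lower. Pdgfc, a platelet-derived growth factor, stood at 6.38, 2.35 and 5.99 CPM against 57.9, 80.9 and 78.4 in Lyve1 or Timd4 macrophages (log2 fold change -3.81, SE 0.40, adjusted p = 8.15e-06). Its relative Pdgfb was higher than in that class, at 236, 122 and 196 CPM against 94.5, 59.1 and 68.1 (log2 fold change 1.48, SE 0.18, adjusted p = 3.88e-05). Bmp2, through which muscularis macrophages are known to act on enteric neurons, was higher than in Ccr2 macrophages (147, 178 and 106 CPM against 84.9, 31.7 and 52.0; log2 fold change 1.50, SE 0.28, adjusted p = 0.00395) and stood below the 215, 198 and 278 CPM of the Lyve1 or Timd4 class without passing the test ( log2 fold change -0.55, SE 0.23, adjusted p = 0.161). Of its UMIs in the 137 cells 22.4% lay in 1 cell, and 34 cells had any.

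**Figure D5:**
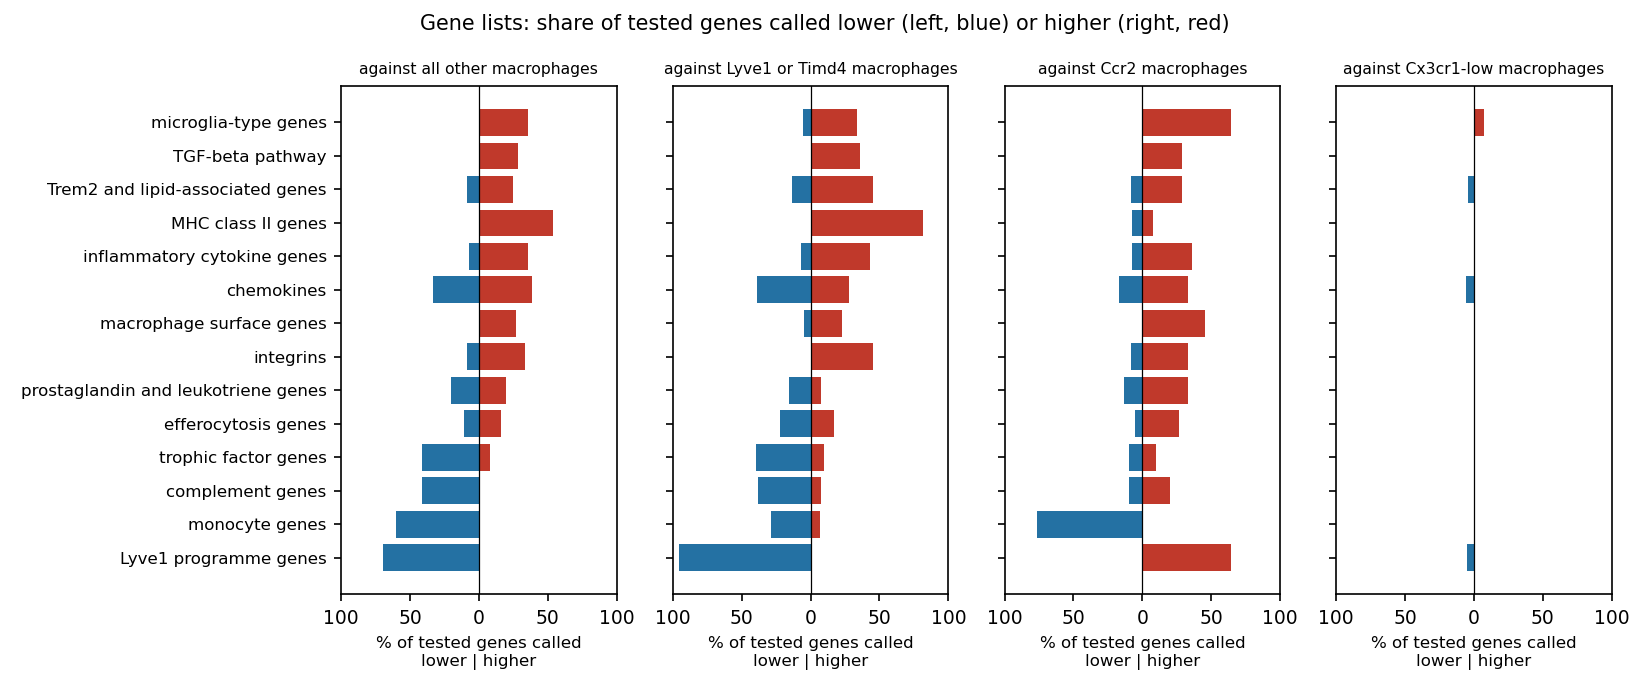
Share of tested genes called higher (to the right) and lower (to the left) in Cx3cr1-positive Lyve1-negative macrophages, in percent, for gene lists in rows and the comparisons with the other macrophage classes in panels. The Lyve1 programme is called lower against Lyve1 or Timd4 macrophages (22 of 23) and higher against Ccr2 macrophages (11 of 17), and MHC class II genes are called higher against Lyve1 or Timd4 macrophages (9 of 11).

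The fewest genes were called against Cx3cr1-low macrophages, which differ in the rule only by Cx3cr1. There Tmem119 was the 1 gene called higher (log2 fold change 3.06, SE 0.52, adjusted p = 0.0256), and Retnla, Fabp4, Cd209a, Cd209g and Ccl8 were lower. An unadjusted p under 0.05 was reached by 311 of the 5743 genes. These 132 cells held 994588 UMIs in all. Without replicate 3 Tmem119 (3.73, adjusted p = 0.593), Cd209a (-3.29, adjusted p = 0.897), Cd209g (-3.56, adjusted p = 0.593) and Ccl8 (-3.07, adjusted p = 0.593) were not called, and Retnla was (-3.38, adjusted p = 0.00494). Fabp4 was tested in the fit without replicate 1 only, where it was called (-4.50). Tmem119 was not called by DESeq2 (adjusted p = 0.0878).

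The threshold of 2 Cx3cr1 UMIs did not part the cells cleanly. With the other limits kept, 101 cells had no Cx3cr1 UMI, 31 had exactly 1, 25 exactly 2 and 112 had 3 or more. Pooled over libraries in that order, Retnla stood at 1104, 274, 57.4 and 66.3 CPM. Tmem119 stood at 2.65, 24.9, 38.2 and 72.0 CPM. Itgb5 stood at 74.3, 145, 52.6 and 216, and Pmepa1 at 99.5, 129, 115 and 380. The libraries took unequal parts in these bins: of the cells of replicates 1, 2 and 3, 6, 9 and 16 had exactly 1 Cx3cr1 UMI, 2, 17 and 6 had exactly 2, and 14, 28 and 70 had 3 or more. These values follow the rule and were not tested.

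Of 19 tested proliferation genes edgeR called 0 higher and 0 lower than in all others, DESeq2 likewise 0 and 0, and at an unadjusted p under 0.05 the counts were 0 and 4. Compared with Ccr2 macrophages edgeR called 0 higher and 1 lower (Tubb5) and DESeq2 0 and 0, with 0 and 10 at an unadjusted p under 0.05. The median log2 fold change there was -0.62. Of all genes tested, 1110 of 8600 against all others and 1475 of 7816 against Ccr2 macrophages had an unadjusted p under 0.05, in either direction. The proliferation list summed to 568, 777 and 1503 CPM in the 137 cells and to 1286, 1614 and 1754 in Ccr2 macrophages. At equal depth a UMI of Mki67 was found in 3.98 ± 3.51% of the 137 cells and 3.96 ± 3.02% of lymphoid barcodes. Markers of smooth muscle summed to 70.2 to 162 CPM in the 137 cells, within the 23.6 to 279 CPM of the Lyve1 or Timd4 and Ccr2 classes, and none of 8 tested was called. T, NK and innate lymphoid markers summed to 97.3 to 211 CPM, with Cd3d, Cd3e and Cd3g at 0, and endothelial markers to at most 7.49 CPM. Of the 4 lymphoid markers tested, Areg was lower than in all others and than in Lyve1 or Timd4 macrophages. Il7r was higher than in Lyve1 or Timd4 macrophages, where DESeq2 called 0 higher and 1 lower. Granulocyte markers summed to 262, 82.2 and 56.9 CPM in the 137 cells of replicates 1, 2 and 3, to 145 to 236 in Lyve1 or Timd4 and to 22.8 to 71.7 in Ccr2 macrophages, with S100a9, Retnlg and Cxcr1 at 0 in the 137 cells. Of the 2 that were tested, Csf3r and Mmp9, both were higher than in Ccr2 macrophages (log2 fold changes 1.27, SE 0.31, adjusted p = 0.0219 and 2.19, SE 0.33, adjusted p = 0.000929), and Mmp9 was lower than in Lyve1 or Timd4 macrophages (-1.47, SE 0.38, adjusted p = 0.0185). Without replicate 2 Csf3r (1.02, adjusted p = 0.196) and the latter difference of Mmp9 (-1.26, adjusted p = 0.159) were not called, nor was the latter without replicate 3 (-0.69, adjusted p = 0.577). DESeq2 called neither of those 2 differences (adjusted p = 0.122 and 0.104). The part of granulocyte markers in the differences from both classes was not tested. The median mitochondrial share was 2.60, 2.28 and 2.42% in the 137 cells and 4.27, 3.92 and 3.63% in Lyve1 or Timd4 macrophages, whose median depth was 6316, 8786.5 and 8364 UMIs. The part of mitochondrial share in the differences from that class was not tested.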

How the data were processed

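Each of 3 libraries was made with a droplet 3' kit from CD45+ cells of the stomach muscle layer. The authors deposited UMI counts per gene and barcode, made with Cell Ranger 3.1 on mm10 per the submitters' processing notes; the file headers name software 3.0.0 in replicate 1, and 3.1.0 in the other two. Barcodes with at least 2000 UMIs and at most 15% mitochondrial UMIs were kept: 498, 1105 and 1072. Doublets were left in, and an alternative removed the highest scrublet scores at 0.8% per 1000 barcodes, 1 of the 137 cells among them. No clustering was used.

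Deposited counts, summed within each class of a library, were tested with edgeR 4.0.16 (R 4.3.3; filterByExpr, TMM, glmQLFit, glmQLFTest) with the library as a block, since both classes of a library share it. DESeq2 1.42.0 was an alternative. Levels are CPM of the summed counts. The genes named are the label's markers, up to 12 genes per direction and comparison of largest fold change (called, same sign in each library, at least 20 CPM in the higher class), examples from 27 fixed lists and 28 genes compared for shares; other members of a list stand only where its calls are given. The members and lists were chosen with earlier results of these data known. Coordinates come from the GRCm38 annotation. The code was tested on simulated data. Diabetic samples were not analysed here, and a few genes are not reported here.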

Additional observations from a re-analysis of the deposited data

How the results depend on the processing

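Counts of genes moved with the processing: with the test, the depth of the cells, the low-count filter and the libraries used. Without the replicate block the counts against all other macrophages fell from 189 higher and 163 lower to 17 and 21, all of them among the main calls; against Lyve1 or Timd4 macrophages from 389 and 329 to 81 and 77; against Ccr2 macrophages from 272 and 203 to 32 and 50; and against Cx3cr1-low macrophages from 1 and 5 to 0 and 0, where Retnla (adjusted p = 0.443) and Tmem119 (0.239) were lost. DESeq2 called 95 and 71 against all others, 134 lower than in Lyve1 or Timd4 macrophages, and 118 and 86 against Ccr2 macrophages. With cells thinned to 2000 UMIs the counts were 83 higher against all others, 240 and 206 against Lyve1 or Timd4, 55 and 50 against Ccr2, and 0 and 3 against Cx3cr1-low macrophages. Without the low-count filter 263 genes were lower than in all others, 403 lower than in Ccr2 macrophages, and 19 higher and 30 lower than in Cx3cr1-low macrophages.

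Leaving out each replicate gave 96 to 246 higher and 87 to 277 lower against all others, 149 to 513 and 82 to 501 against Lyve1 or Timd4, 179 to 363 and 138 to 278 against Ccr2, and 0 to 8 and 1 to 23 against Cx3cr1-low macrophages. In the last comparison no gene was higher without doublets, at 4000 UMIs or more, or with Cx3cr1 limits of 1 or 3 UMIs (0 each), and the lower genes numbered 3 without doublets, 3 at 10% mitochondrial UMIs, 0 with at least 1 Cx3cr1 UMI and 3 with at least 3. Replicate 1 had under 10 Cx3cr1-low cells, and was left out of that comparison, at 4000 UMIs or more and with Cx3cr1 limits of 1 or 3 UMIs. The share of the chosen cells among macrophages rose from 8.85% to 11.1% with a limit of 1 Cx3cr1 UMI, and was 7.60% with a limit of 3 and 7.71% with the rule read from cells thinned to 2000 UMIs. In replicate 2 it went from 7.08% to 4.59 and 4.24% under the last 2. No named gene that was called changed sign in an alternative that gave it a value. The share of cells with an Adgre1 UMI differed by -3.95 percentage points at equal depth and by 2.10 unthinned. Apart from the values beside the constructions named, the cause of these shifts was not tested.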
